A study of Homo sapiens with 6 samples.

Results

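Broad Myc peaks were described in TKO cells, an MDA-MB-231 derivative in which TXNIP was knocked out. The sites were chosen by the width of their TKO peaks. Peaks of both TKO lists were merged where they overlapped by at least 1 bp, and a merged site was kept when it held a peak of at least 1200 bp in either TKO library and at least 1 peak in the other. This left 667 broad sites of 18609 sites called in both TKO libraries (3.58%) and of 32924 merged TKO sites in all. A single further site held a wide peak in 1 TKO library and no peak in the other, and it was not a member.

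MDA-MB-231 is a human triple-negative breast cancer cell line. The study asked whether TXNIP loss changes where Myc binds, using Myc chromatin immunoprecipitation sequencing (ChIP-seq) with the D3N8F antibody in unedited cells (Parental231 in the labels, parental here) and in TKO cells. Each line had 2 Myc libraries and 1 input sample, and the inputs were not analysed here as peak lists. TKO cells were grown from single cells after transfection of a CRISPR/Cas9 plasmid against TXNIP, so a difference between the lines cannot be told apart from one between a clone and its parental population. Both lines were kept in the same medium, with no other treatment.

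Myc binds DNA as a heterodimer with Max, preferably at the E-box CACGTG, and is found at the promoters of most active genes when it is abundant, including sites that lack the motif. TXNIP, the thioredoxin interacting protein, is an arrestin family member that restrains glucose uptake. The width of a ChIP-seq peak is the stretch over which the fragments pile up above background without a break. It grows with the number of bound positions lying close together, with the height of the pileup and with the fragment length that the peak caller assumes.

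Of the broad sites with the most E-boxes, at 5 each, 4 show how several copies can lie within a single wide peak, and 160 bases of each are given around the densest E-boxes that could be shown outside UTRs. The widest site with no parental peak, in SARDH, is given at its summit for contrast. Sequences are the plus strand of GRCh37 (hg19), 5′ to 3′. Capitals mark CACGTG in the first 4 and TGACTCA, an AP-1 motif, in the last.
ENO1, chr1:8938358-8938517: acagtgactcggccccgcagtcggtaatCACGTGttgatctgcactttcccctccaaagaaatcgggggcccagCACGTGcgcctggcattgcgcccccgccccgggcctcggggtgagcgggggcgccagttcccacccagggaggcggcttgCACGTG
ZZZ3, chr1:78148609-78148768: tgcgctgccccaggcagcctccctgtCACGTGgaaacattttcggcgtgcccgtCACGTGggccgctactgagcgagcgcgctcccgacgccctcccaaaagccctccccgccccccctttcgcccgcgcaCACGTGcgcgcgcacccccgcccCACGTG
PPRC1, chr10:103893326-103893485: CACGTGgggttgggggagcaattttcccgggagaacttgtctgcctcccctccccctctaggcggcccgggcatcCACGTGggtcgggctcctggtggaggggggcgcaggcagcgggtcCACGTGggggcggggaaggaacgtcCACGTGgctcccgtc
SBNO2, chr19:1170595-1170754: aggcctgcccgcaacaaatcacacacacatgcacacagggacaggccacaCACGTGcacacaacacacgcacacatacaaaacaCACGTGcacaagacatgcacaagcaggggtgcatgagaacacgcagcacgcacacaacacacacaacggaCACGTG
SARDH, chr9:136580071-136580230: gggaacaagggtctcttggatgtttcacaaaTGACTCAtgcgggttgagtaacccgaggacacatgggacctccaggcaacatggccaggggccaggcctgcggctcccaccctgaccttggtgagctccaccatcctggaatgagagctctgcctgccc

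ENO1 encodes the glycolytic enzyme enolase 1, and the stretch shown lies in an intron and holds 3 of the 5 E-boxes of its site. ZZZ3, a subunit of the ATAC histone acetyltransferase complex, and PPRC1, a PGC-1 related coactivator, each show 4 of 5 within 160 bases. The SBNO2 stretch, in an intron 3580 bp from the nearest start site, shows 3 E-boxes within a run rich in CA dinucleotides and lies 585 bp from the summit. The SARDH stretch holds an AP-1 motif and no E-box, and the whole SARDH site holds 1 E-box.

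Widths of 1200 bp or more were seen only in the TKO lists. The TKO lists held 478 such peaks in replicate 1 (1.76% of 27213 peaks) and 433 in replicate 2 (1.67% of 25887). Parental replicate 1 had 3720 peaks, the widest of 1106 bp, and parental replicate 2 had 5719 peaks, the widest of 1165 bp. The narrowest peak, which tracks the fragment length used by the caller, was 140 and 151 bp in the parental lists and 182 and 201 bp in the TKO lists, and its part in the widths was not tested. The number of reads behind each library is not given in the peak lists, so depth is unknown here and no interval below covers it.

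**Figure D1:**
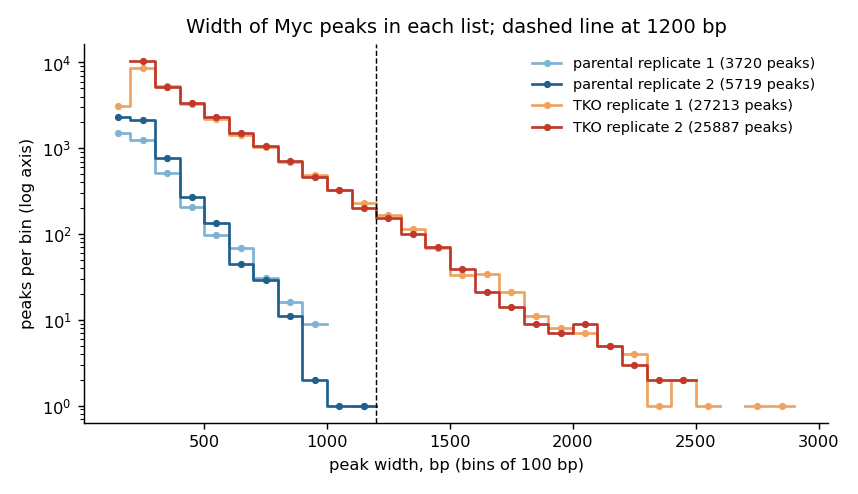
Width of each Myc peak in the 4 lists, in bins of 100 bp, against the number of peaks per bin on a log axis, with points at bins that hold peaks. Only the 2 TKO lists reach past the dashed line at 1200 bp, and the widest parental peaks are 1106 and 1165 bp.

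The libraries shared the sites but often differed on which of them were wide. Of the 667 broad sites, 243 (36.4%) had a peak of at least 1200 bp in both TKO libraries, 235 in replicate 1 alone and 189 in replicate 2 alone. The median width of the widest peak was 1280 bp in replicate 1 and 1268 bp in replicate 2, and 32 sites held a peak of at least 2000 bp. In 432 sites each library had 1 peak, whereas in 235 sites at least 1 library split the stretch into several peaks. At GADD45B, for example, replicate 1 had a peak of 2225 bp among 2 peaks and replicate 2 had 4 peaks, the widest of 1134 bp.

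Just inside the threshold were the sites nearest to ZNF566 (1045 and 1200 bp in TKO replicates 1 and 2), FKBP5 (1201 and 1047 bp) and PRPF18 (1201 and 567 bp, in an intron of FRMD4A). Just outside were those of FAM98A (1199 and 859 bp), ABCF2 (828 and 1199 bp) and RPL8 (699 and 1199 bp). No gap in width separates these from the members.

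The widest site of all covered the promoter of BRD2, a bromodomain protein that reads acetylated histones, at chr6:32935757-32939038. Its widest peak was 2879 bp in TKO replicate 1 and 2474 bp in replicate 2, and 825 and 515 bp in parental replicates 1 and 2. Every TKO value was above every parental one, as the choice on TKO width makes likely at such sites. Other promoters among the widest belonged to RPL10, a large ribosomal subunit protein (2583 and 2259 bp in TKO, 854 and 607 bp in parental cells), and DDX3X, a DEAD box RNA helicase (2419 and 2156 bp against 396 and 376 bp). SERBP1, an mRNA-binding protein found on ribosomes, followed with 2378 and 2174 bp in TKO and 968 and 558 bp in parental cells. HSP90AB1, the constitutive cytosolic HSP90, had 2095 and 2200 bp against 719 and 766 bp. These 5 promoters serve genes of transcription, RNA handling, protein synthesis and folding.

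The 6 widest sites away from promoters reached similar widths. The site nearest to TRERF1, a zinc-finger transcriptional regulator, measured 2400 and 2381 bp in TKO and lay 1846 bp upstream of the start site, with 363 and 366 bp in the parental libraries. The SARDH site, in an intron of the gene for the mitochondrial sarcosine dehydrogenase at chr9:136579646-136582076, measured 2250 and 2431 bp in TKO and had no peak in either parental library. Upstream of THBD, the endothelial anticoagulant receptor thrombomodulin, the widths were 2057 and 2036 bp in TKO and 399 and 507 bp in parental cells. Introns of RASA3, a Ras GTPase-activating protein (2051 and 1982 bp), VCAN, the matrix proteoglycan versican (1970 and 1886 bp), and WDR1, an actin disassembly factor (1719 and 2114 bp), held the others. Parental replicates 1 and 2 had 529 and 512 bp at RASA3, 437 and 1165 bp at VCAN, and 249 and 344 bp at WDR1. The VCAN peak of 1165 bp was the widest in its parental list. The widest peak of the other parental list, of 1106 bp, also lay in a broad site, at MRPS18B, where the second parental library had 1084 bp.

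**Figure D2:**
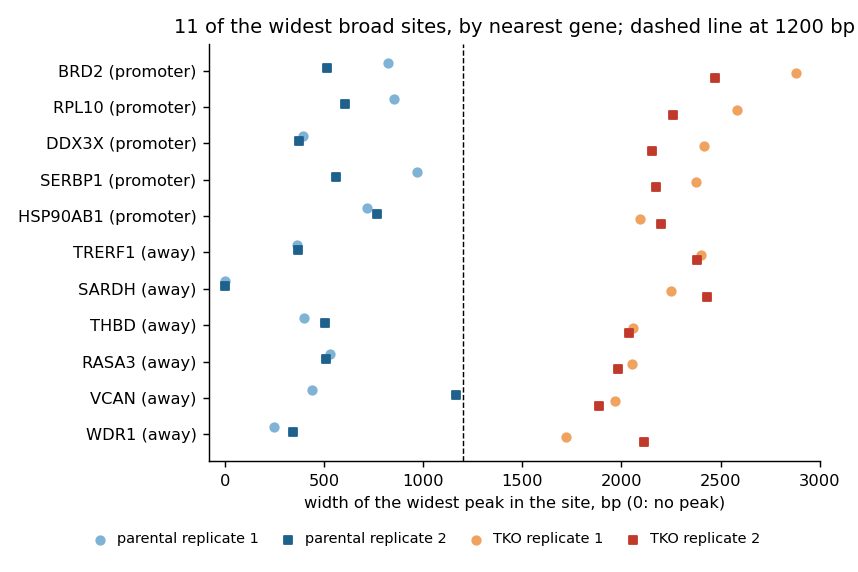
Width in bp of the widest peak of each library at 5 of the 6 widest promoter sites and at the 6 widest sites away from promoters, ordered by mean TKO width within each set, with 0 where a library had no peak. All TKO points lie right of the dashed line at 1200 bp and all parental points left of it, from no peak at SARDH to 1165 bp at VCAN.

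Broad sites were strong in the TKO lists, although not all of them were. Fold here is the authors' ratio of summit pileup to local background. Its median over broad sites was 10.97 in replicate 1 and 10.7 in replicate 2, which is the 92.3 and 91.7 percentile of the respective list, against 59.4 and 59.5 for all 17942 other sites. In both libraries 323 sites (48.4%) were at or above the 90th percentile, and 32 in replicate 1 and 40 in replicate 2 were below the 50th. The highest fold among them was 42.4 in replicate 1 and 48.1 in replicate 2. Fold comes from the same libraries as the width that chose the sites, so these values are a description. For comparison, 1541 narrower sites at or above the 90th percentile in both TKO lists are given below as strong narrower sites, and they are also counted among all other sites.

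Summits differed more between the TKO libraries in broad sites than in the other classes. A wide site leaves summits more room to lie apart, and width chose the broad sites, so these values are a description. The summits of the 2 TKO libraries lay within 100 bp of each other in 448 broad sites (67.2%), in 1444 strong narrower sites (93.7%) and in 13604 of all other sites (75.8%). The median distance between them was 54, 26 and 47 bp. The merged broad sites had a median width of 1403 bp and together spanned 993 kb.

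Most broad sites lay at promoters. The summit was within 1 kb of a protein-coding transcription start site (TSS) in 502 of 667 broad sites (75.3%, 95% confidence interval 71.8% to 78.5%). Strong narrower sites had 70.7% (68.4% to 73.0%) there and all other sites 48.3% (47.5% to 49.0%). By the summits of TKO replicates 1 and 2 taken alone, the share of broad sites was 75.3% and 76.0%. All intervals are exact Clopper-Pearson intervals that cover counting error over sites only, and sites are not replicates of a condition, so no test was made between the classes. A TSS of any gene type was within 1 kb in 84.0% of broad, 76.7% of strong narrower and 55.6% of all other sites. In the broad class, 98 sites (14.7%) were over 10 kb from a protein-coding TSS, compared with 20.1% of strong narrower and 35.9% of all other sites.

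At promoters the broad sites spread to both sides of the start site. Over the 502 promoter sites, the median reach was 734 bp upstream and 709 bp downstream of the TSS, and 246 sites (49.0%) reached at least 500 bp in both directions. The reach downstream was the longer in 47.6% of these sites, and likewise in 47.6% of strong narrower and 48.9% of all other promoter sites. In strong narrower promoter sites the medians were 421 and 402 bp. The extent of each site was part of the choice, but its balance around the start site was not. The median summit lay 11 bp downstream of the TSS.

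Some broad sites lay near the starts of more than 1 gene. Genes were counted by name, so a readthrough such as HSPE1-MOB4 counts as a further gene. In 132 broad sites (19.8%, 95% confidence interval 16.8% to 23.02%) the TSS of at least 2 protein-coding genes were within 1 kb of the summit, a window of equal length for every class. The share was 11.7% (10.1% to 13.4%) in strong narrower sites and 6.53% (6.17% to 6.90%) in all other sites. Pairs of genes transcribed away from each other were in 118 broad sites (17.7%), against 7.85% of strong narrower and 3.12% of all other sites. This count was made within the site and so grows with the width that chose the broad sites. Among them, PAICS and PPAT, which encode enzymes of purine synthesis, shared a site of 1889 and 2314 bp, and HSPD1 and HSPE1, the mitochondrial chaperonin and its cofactor, shared one of 2097 and 2018 bp. TCP1, a subunit of the cytosolic chaperonin, and MRPL18, a mitochondrial ribosomal protein, shared another, of 1873 and 1914 bp.

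The summits fell outside protein-coding genes in 36.9% of broad sites, in introns in 31.3%, in UTRs in 23.4% and in coding sequence in 8.40%. Chromosome 1 held 69 broad sites (10.3%, against 10.1% of all other sites). Chromosomes 6, 11 and 17 held 60, 60 and 61 (9.00%, 9.00% and 9.15%, against 5.997%, 6.02% and 6.55%). Chromosome 16 stood at the other end, with 6 broad sites (0.900%) against 3.93% of all other sites. The copy number of these chromosomes in the cell line was not analysed here, and its part in these shares was not tested.

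The parental libraries had taken no part in the choice, and they had peaks in most broad sites. Parental replicate 1 had a peak in 445 (66.7%, 95% confidence interval 63.0% to 70.3%), against 17.9% of all sites called in both TKO libraries. Parental replicate 2 had a peak in 452 (67.8%, 64.1% to 71.3%), against 23.8%. Both parental libraries had one in 384 (57.6%, 53.7% to 61.4%), against 14.1%. Neither had one in 154 (23.1%, 19.9% to 26.5%), against 16.8% of strong narrower and 74.3% of all other sites. A wide site offers more room for a parental peak to overlap. With the stricter need for a parental summit within 100 bp of a TKO summit in both parental libraries, the share was 47.8% (43.98% to 51.7%).

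Strong narrower sites held parental peaks more often than broad sites taken as a whole, at 74.7% in replicate 1, 74.4% in replicate 2 and 65.9% (63.4% to 68.2%) in both. The order differed among the stronger broad sites. Of the 323 broad sites at or above the 90th percentile of fold in both TKO lists, 254 had a peak in both parental libraries (78.6%, 73.8% to 83.0%). By summits within 100 bp the shares were 68.1% (62.7% to 73.2%) for these and 60.6% (58.1% to 63.1%) for strong narrower sites, and these intervals overlapped. Only the lower limit on fold was the same for both classes, and fold above it was not matched. This comparison was added after the data were seen.

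The widest parental peak of a site, where there was one, had a higher median width in broad sites than in the other classes. Its median was 302 bp in replicate 1 and 315 bp in replicate 2, against 272 and 277 bp in strong narrower and 219 and 225 bp in all other sites. A wide site can hold more parental peaks from which the widest is taken. Over whole lists, with every peak counted, the median was 219 and 217 bp. Parental peaks covered a median of 23.8% and 24.0% of the sites that held one. The summit of the strongest parental peak was at a median of 26 and 27 bp from the nearest TKO summit. A parental summit lay within 100 bp of a TKO summit in 404 of 445 sites (90.8%) in replicate 1 and in 393 of 452 (86.9%) in replicate 2. Both measures were looser than in the other classes, with medians of 18 and 20 bp and shares of 95.6% and 93.9% in strong narrower sites, and 21 and 23 bp, 93.8% and 92.7% in all other sites.

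**Figure D3:**
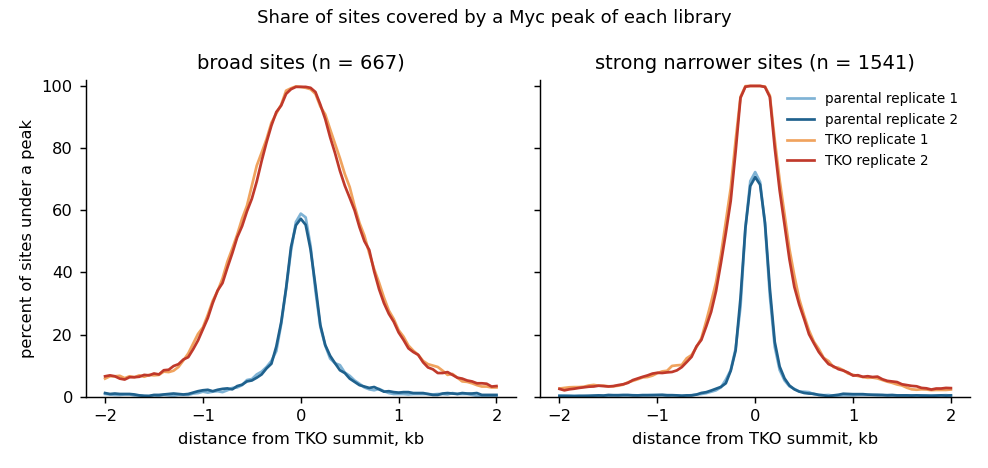
Percent of sites under a peak of each library, by distance in kb from the TKO summit, for broad sites and strong narrower sites. At the summit of broad sites, 58.9% and 57.3% were under a peak of parental replicates 1 and 2, and the parental curves fall off close to the summit in both panels while the TKO curves of broad sites extend to about 1 kb.

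Several parental peaks often lay inside 1 broad site. Each parental library had at least 2 peaks in 91 broad sites (13.6%), whereas this occurred in 2.40% and 3.05% of strong narrower sites, which are shorter. The BRD2 site held 3 and 4 parental peaks, the most of any. Sites with 5 parental peaks over both libraries included those of SERBP1, RBM15, an RNA-binding protein of the m6A writer complex, COX20, an assembly factor of cytochrome c oxidase, and PAICS. In all, 547 of 3720 peaks of parental replicate 1 (14.7%) and 553 of 5719 of replicate 2 (9.67%) lay in broad sites. The fold of the best parental peak in a broad site had a median of 5.80 and 5.64, the 57.6 and 59.7 percentile of its list, so parental peaks at these sites were spread over the range of their lists.

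Broad sites with a peak in both parental libraries were the stronger ones in TKO cells. Their median fold in TKO replicates 1 and 2 was 13.9 and 13.2, against 9.63 and 9.12 with a peak in 1 parental library and 8.16 and 7.91 with none. Promoter shares were 77.9% (73.4% to 81.9%) with both, 72.9% (64.3% to 80.3%) with 1 and 70.8% (62.9% to 77.8%) with none, and these intervals overlapped. The share with an E-box within 500 bp was 53.6% (48.5% to 58.7%) with both, 41.9% (33.2% to 50.9%) with 1 and 30.5% (23.4% to 38.4%) with none, and the first and last intervals did not overlap.

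The 154 sites with no parental peak were led in width by SARDH. SPAG7 followed with 1884 and 1867 bp in TKO replicates 1 and 2. HNRNPA0, an RNA-binding protein, had 1685 and 1688 bp, GADD45B, a stress-response gene, had 2225 and 1134 bp, and CCDC85B had 1725 and 1581 bp. Their folds lay between 4.96 and 12.9 in the TKO lists. Absence of a parental peak says that none passed the authors' threshold, not that no Myc was bound.

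Broad sites were GC-rich over a long stretch. The median GC content within 500 bp of the summit was 60.7% in broad sites (95% confidence interval of the median 60.2% to 61.2%), 59.5% in strong narrower and 57.1% in all other sites, and equally long windows lying 3 kb from the summits of broad sites had 45.8%. The ratio of observed to expected CpG dinucleotides had medians of 0.765, 0.757 and 0.6002. In 533 broad sites (79.9%) the window had at least 50% GC and a CpG ratio of at least 0.6, a common description of a CpG island. This held for 72.9% of strong narrower and 48.3% of all other sites. The window had the same length in every class, and in the narrower classes more of it lay outside the site. Within 100 bp of the summit the median GC content was 63.7% in broad, 64.2% in strong narrower and 61.2% in all other sites. Over the merged site it was 61.0%, 61.3% and 59.8%.

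E-boxes lay near many of the summits. CACGTG was found within 500 bp in 307 of 667 broad sites (46.0%, 95% confidence interval 42.2% to 49.9%), in 49.5% (47.0% to 52.0%) of strong narrower sites and in 27.1% (26.4% to 27.7%) of all other sites. In windows of the same length 3 kb to the left and right of broad sites, 10.8% and 10.9% held it. The merged site as a whole held an E-box in 369 cases (55.3%) and at least 2 in 125 (18.7%), against 48.8% and 9.80% of strong narrower and 22.5% and 2.99% of all other sites. A longer site has room for more motifs. Per kb of merged site the mean was 0.536 E-boxes in broad, 0.812 in strong narrower and 0.474 in all other sites. The first 4 sequences above are the upper end of this range.

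Close to the summit, broad sites held an E-box less often than strong narrower sites. Within 50 bp, 14.8% of broad sites (12.2% to 17.8%) and 25.6% of strong narrower sites (23.4% to 27.8%) held an E-box, against 9.88% of all other sites. By the summits of TKO replicate 1 the shares were 15.7% and 26.0%, and by those of replicate 2 they were 14.7% and 25.6%. Among the 448 broad sites whose TKO summits were within 100 bp of each other the share was 17.9% (14.4% to 21.7%), and among the other 219 it was 8.68% (5.30% to 13.2%). The 1444 strong narrower sites with close summits had 26.5% (24.3% to 28.9%). Strong narrower sites were chosen for high fold, and broad sites were not. Of the 323 broad sites at or above the 90th percentile of fold in both TKO lists, 18.3% (14.2% to 22.9%) held an E-box within 50 bp. Within 500 bp their share was 54.8% (49.2% to 60.3%), and this interval overlaps that of strong narrower sites. Fold above the limit was not matched, and this restriction was added after the data were seen. Further out, from 200 to 700 bp on either side, broad sites had 0.325 E-boxes per kb, strong narrower sites 0.196 and all other sites 0.171. GC content over that range was 58.1%, 55.5% and 54.2%, and its part in the E-box counts was not tested. That range was chosen after the profile was seen.

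**Figure D4:**
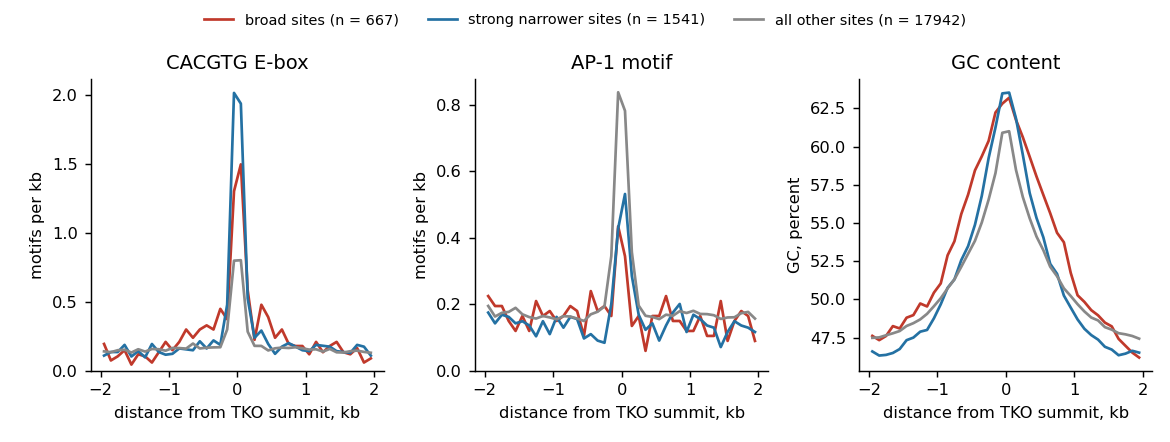
E-boxes per kb, AP-1 motifs per kb and GC content in percent, in bins of 100 bp by distance in kb from the TKO summit, for broad, strong narrower and all other sites. The 2 bins beside the summit hold 1.30 and 1.499 E-boxes per kb in broad sites and 2.02 and 1.94 in strong narrower sites, and GC content in broad sites is raised over a longer stretch. The GC axis does not start at 0.

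Other motifs were counted in the same windows. The E-box variant CACGCG was within 500 bp in 47.4% of broad, 46.7% of strong narrower and 28.5% of all other sites, and in 6.75% of the windows on either side of broad sites. The variant CATGTG was less frequent near broad summits (31.0%) than in the windows 3 kb left and right (42.4% and 41.1%). The same held for strong narrower sites (34.4% against 45.2% on either side) and all other sites (38.5% against 45.5% and 45.3%). GGGCGG, the GC box of SP and KLF factors, was in 87.7%, 83.1% and 67.9% of the 3 classes, and CCGGAAGT, an ETS motif, in 13.2%, 14.02% and 6.83%. CCAAT, the core bound by NFY, was in 64.9%, 64.1% and 63.5%, and in 68.7% and 73.8% of the windows on either side of broad sites.

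AP-1 motifs, TGACTCA or TGAGTCA, were rarer near broad and strong narrower summits than near all other summits. They were within 500 bp in 96 broad sites (14.4%, 11.8% to 17.3%), close to the 15.0% and 14.2% of the windows 3 kb away, in 17.7% (15.8% to 19.7%) of strong narrower sites and in 26.8% (26.2% to 27.4%) of all other sites. The first and second of these intervals overlap. The share was also counted by position, where away from promoters means no protein-coding TSS within 1 kb of the summit. Sites at starts of noncoding genes are thus among them. A long noncoding RNA gene but no protein-coding gene started within 1 kb in 48 broad sites (7.20%), against 5.26% of strong narrower and 6.05% of all other sites. In the 165 broad sites away from promoters the AP-1 share was 32.7% (25.6% to 40.5%), against 36.8% (32.3% to 41.4%) in strong narrower and 41.6% (40.6% to 42.6%) in all other sites away from promoters. In broad promoter sites it was 8.37% (6.10% to 11.1%), against 9.82% (8.11% to 11.7%) in strong narrower and 10.97% (10.3% to 11.6%) in all other promoter sites. The intervals of broad and all other sites overlapped at promoters and did not overlap away from them. In 148 broad sites (22.2%) neither CACGTG nor its variant CACGCG nor an AP-1 motif was within 500 bp, and this was so in 18.6% of strong narrower and 34.9% of all other sites.

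Parental peaks and E-boxes were also counted in broad sites away from promoters. Both parental libraries had a peak in 51.5% of these (43.6% to 59.4%), against 59.6% (55.1% to 63.9%) of broad promoter sites. E-boxes within 500 bp were in 41.8% (34.2% to 49.7%) and 47.4% (42.97% to 51.9%), and both pairs of intervals overlapped. Median GC content was 59.2% and 61.2%, but the CpG ratio was lower away from promoters, at 0.528 against 0.789. Among strong narrower sites away from promoters the CpG ratio was 0.379 and GC content 55.1%, and 53.0% (48.3% to 57.7%) had an E-box within 500 bp. Among all other sites away from promoters the CpG ratio was 0.296 and GC content 53.0%, and 27.1% (26.2% to 28.1%) had an E-box.

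In all, 639 of 19785 protein-coding genes (3.23%) had a broad site with its summit within 1 kb of a TSS, while 8736 (44.2%) had any site called in both TKO libraries there. The share was higher in several lists of the protein-making machinery, given here as counts with no test of a list. Cytosolic ribosomal protein genes had one in 27 of 87 (31.0%, 21.5% to 41.9%), and 83 of the 87 had a site of any width. RPL12, of the large subunit, had 1917 and 2087 bp in TKO replicates 1 and 2 with 671 and 537 bp in the parental libraries. RPL10A, another large subunit gene and one that the study examined singly, had 2180 and 1602 bp, with 721 and 781 bp in parental cells and a fold of 28.4 and 32.7 in TKO. RPS12, of the small subunit, had 2112 and 1139 bp. Mitochondrial ribosomal protein genes were also nearly all bound, 75 of 78, yet only 3 (3.85%, 0.800% to 10.8%) had a broad site, namely MRPL18, MRPS18B and MRPL34.

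Factors that build and run the ribosome followed. Of 35 nucleolar and ribosome biogenesis genes, 10 (28.6%, 14.6% to 46.3%) had a broad site and all 35 had some site. NOP56, a core protein of box C/D ribonucleoproteins, had 1904 and 1770 bp, NPM1, the nucleolar phosphoprotein nucleophosmin, had 1740 and 1644 bp, and DKC1, the pseudouridine synthase dyskerin, had 1404 and 1516 bp. Translation initiation and elongation factors had 15 of 70 (21.4%, 12.5% to 32.9%), among them EEF1A1, the elongation factor that brings tRNA to the ribosome (1756 and 1705 bp), and EIF4A2, an initiation helicase (1594 and 1537 bp). The 15 include EEF1AKMT3, EEF1AKMT4 and the readthrough EEF1AKMT4-ECE2, which match the list by name but encode methyltransferases of the elongation factor or their fusion, and the last 2 share 1 site with ALG3.

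Chaperones had the highest share of the lists, 11 of 30 (36.7%, 19.9% to 56.1%). They included HSPA8, the constitutive HSP70 (2170 and 1842 bp), HSPA5, the HSP70 of the endoplasmic reticulum, HSPA9, that of mitochondria, and the chaperonin subunits TCP1, CCT3, CCT5 and CCT7. Splicing proteins of the SR and hnRNP families had 11 of 38 (28.9%, 15.4% to 45.9%), led by HNRNPA1 (2108 and 2047 bp), HNRNPH3 (1839 and 2002 bp) and HNRNPH1 (1810 and 1675 bp). SRSF1, a splicing activator, had 1663 and 1794 bp and held 3 and 2 parental peaks, with no E-box in the site. DEAD and DEAH box RNA helicases had 7 of 54 (13.0%, 5.37% to 24.9%), with DDX21, a nucleolar helicase (1656 and 1682 bp), after DDX3X.

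Other short lists held few broad sites. Glucose uptake and glycolysis genes had 3 of 24 (12.5%, 2.66% to 32.4%): ENO1 (1736 and 1645 bp), and LDHA (1484 and 1273 bp) and LDHB (1197 and 1214 bp), which encode lactate dehydrogenase subunits. The MYC, MAX and MXD network had 2 of 13, both repressors that pair with Max, MXD1 (1212 and 1092 bp) and MNT (889 and 1201 bp). AP-1 factors had 2 of 16, ATF4 (1431 and 1433 bp) and ATF3 (822 and 1350 bp), and G1 cyclins, CDKs and inhibitors had 2 of 20, CCND1, which encodes cyclin D1, and E2F3, a transcription factor of the G1 to S transition that the list also holds. Immediate early genes had 2 of 30, IER2 (1484 and 1922 bp) and PLK2 (1228 and 1225 bp). With so few genes the interval reaches below the background of 3.23% in each of these 5 lists.

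In the remaining lists the share was near or below that background, with wide intervals where the list is short. Solute carriers had 16 of 373 (4.29%, 2.47% to 6.87%), among them SLC30A7, a zinc transporter, and SLC3A2 and SLC1A5, which serve amino acid uptake. A site of any width was at 145 of the 373. ZNF zinc-finger genes had 14 of 509 (2.75%, 1.51% to 4.57%), although 322 had a site of any width. Replication-dependent histones had 1 of 64, H4C14, and 33 had a site of any width. KLF and SP factors had 0 of 27, which allows up to 12.8% by the exact interval, HOX genes 0 of 39, up to 9.03%, and olfactory receptors 0 of 391, up to 0.939%. A site of any width was at 11 of the 27, 2 of the 39 and 0 of the 391. Most genes of the KLF and SP, HOX and olfactory receptor lists thus had no site called in both TKO libraries at all.

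**Figure D5:**
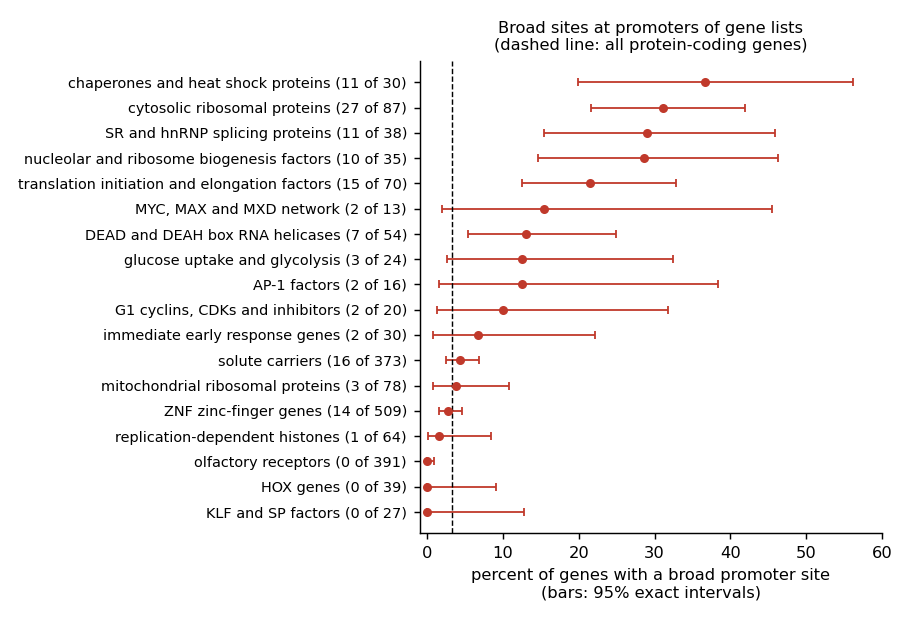
Percent of the genes in each list with a broad site at the promoter, with 95% exact Clopper-Pearson intervals, and the share over all protein-coding genes (3.23%) as a dashed line. Chaperones (36.7%), cytosolic ribosomal proteins (31.0%), SR and hnRNP proteins (28.9%), nucleolar factors (28.6%) and translation factors (21.4%) lie to the right. The intervals of solute carriers, ZNF genes, histones, KLF and SP factors, HOX genes and olfactory receptors reach the dashed line or end left of it.

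Of the other genes that the study examined singly, none had a broad promoter site. TOMM5, a subunit of the mitochondrial import pore (910 and 1027 bp in TKO, 599 and 650 bp in parental cells), SLC20A1, a phosphate transporter (713 and 686 bp, 386 and 243 bp in the wider of its 2 sites), and RPS21, a small subunit protein (492 and 517 bp, 216 and 252 bp), had strong narrower sites. At G0S2, an inhibitor of triglyceride breakdown, TKO replicate 2 had a peak of 1171 bp, under the threshold, and replicate 1 split the stretch into 3 peaks, the widest of 651 bp. NUP43, a nuclear pore protein (334 and 554 bp), and SLC18B1, a polyamine transporter (382 and 389 bp in the wider of its 2 sites), had narrow TKO peaks and no parental peak. No site called in both TKO libraries was at the TXNIP promoter.

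Other sites lay near many of the broad sites. Of the 667, 273 (40.9%, 37.2% to 44.8%) had another site called in both TKO libraries within 10 kb, against 44.3% (41.8% to 46.8%) of strong narrower and 47.2% (46.5% to 48.0%) of all other sites. In 25 broad sites a neighbour in that range was itself broad.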

How the data were processed

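Myc ChIP-seq was done in 2 parental and 2 TKO libraries of MDA-MB-231 cells, and the sample titles give the group and the replicate. The study calls them biological replicates. Per the labels, the authors aligned single-end reads to hg19 with Novoalign 3.08.02 and called peaks with MACS2 2.1.1.20160309. The study gives input chromatin as control and a q-value cutoff of 0.01, and the lists hold 1 set of peaks per library. How duplicate reads were handled is not given in the sources used here. Each deposited list gives the position and summit of a peak, a score, a fold ratio of summit pileup over local background, and the −log10 of its p-value and of its q-value, all as the authors' caller wrote them. Widths are end minus start. Fold was ranked within a list and not compared between lists, the −log10 q-value was used in 1 alternative, and the −log10 p-value and the deposited score were not used.

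Sites, classes and parental overlaps (at least 1 bp) were computed in Python 3.11.15 with pandas 2.3.3, numpy 2.4.6, pysam 0.24.0, scipy 1.17.1, samtools 1.23.1 and matplotlib 3.10.9. A site was represented by the TKO summit of the higher fold percentile. Sequence was GRCh37 and annotation GENCODE v44 lifted to that build, with 55751 start sites of basic protein-coding transcripts in 19785 genes. Motifs were counted on both strands, overlapping matches included, within 500 bp of the summit, and equally long windows 3 kb away were the background. Gene lists were matched by symbol.

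With 2 libraries against 2 an exact permutation test cannot go below p = 0.333, and sites are not replicates, so no test was made. Shares carry exact Clopper-Pearson 95% intervals for counting error only. The steps were tested on simulated data.

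Named were the 6 widest promoter and 6 widest other sites by mean TKO width, the 5 widest with no parental peak, the 5 with most E-boxes, the 5 with most parental peaks, the 3 on each side of the width threshold, the genes the study examined singly, and up to 4 genes per list, widest first. Of these, 1 promoter site and 1 site with most E-boxes are not reported here. Other list members and the sites at small RNA genes were named after their values were seen. The members, lists and rules were chosen with earlier results of these data known. Alternatives were other widths, width less the narrowest peak, a −log10 q-value of at least 5, chromosomes 1 to 22 and X, joining within 100 bp, other windows, and each library left out.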

Additional observations from a re-analysis of the deposited data

How the results depend on the processing

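Counts of broad sites followed the width threshold. There were 1403 sites at 1000 bp, 177 at 1500 bp, 243 when both TKO libraries had to reach 1200 bp, 323 with fold at or above the 90th percentile in both lists, and 433 to 478 with 1 TKO library left out (433 without TKO replicate 1, 1.5 times fewer). The share with a peak in both parental libraries was 52.0%, 64.4%, 67.1% and 78.6% under the first 4 of these, 51.4% for peaks with a −log10 q-value of at least 5, and 47.8% for summits within 100 bp. Leaving out libraries gave 58.7% to 67.8%, the highest when only parental replicate 2 had to have a peak. The promoter share was 71.8% at 1500 bp, 64.8% with a TSS window of 500 bp and 81.1% with 3 kb, and without a TKO library 75.1% to 76.4%. The E-box share was 14.8% within 50 bp, 55.3% over the whole site and 54.8% at the higher fold, and without a TKO library 46.7% to 46.9%. Median GC content was 63.7% within 100 bp and 60.1% to 61.1% without a TKO library. The remaining alternatives kept the count within 1.5 times and the other values within the interval of the reported value. The fold restriction was added after the data were seen. No paired analysis was possible because no result comes from a test between the groups. Depth is unknown, the TKO lists are longer than the parental ones, and a missing peak is not an absence of binding.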

Other observations

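Some broad sites lay at genes of small nuclear and nucleolar RNAs, which were looked at after the site list was seen. A TSS of a snoRNA gene was within 1 kb of the summit in 18 of 667 broad sites (2.70%, 95% confidence interval 1.61% to 4.23%) and in 26 of 17942 other sites (0.145%, 0.0947% to 0.212%). For snRNA genes, which include copies of U1 and U2 that splice pre-mRNA, the counts were 6 (0.900%, 0.331% to 1.95%) and 47 (0.262%, 0.193% to 0.348%). The snoRNA hosts among them included RPL23A, a ribosomal protein gene (1602 and 1217 bp in TKO replicates 1 and 2), and RACK1, a ribosome-bound scaffold protein (1309 and 1437 bp). snoRNAs often lie in introns of ribosomal protein genes, so these sites overlap the lists of the report. Reads from near-identical copies of snRNA and snoRNA genes cannot be assigned with certainty, and the part of such reads in these peaks was not tested.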
